A study of Homo sapiens with 4 samples.

Results

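The 10 genes described here encode chaperones, folding enzymes and regulators of the endoplasmic reticulum (ER): HSPA5, HSP90B1, CALR, PDIA4, DNAJB9, SDF2L1, XBP1, HERPUD1, EDEM1 and SEL1L. They were taken as a list of names, which was chosen with earlier results of these data known. Their probes were found through the RefSeq accession that the array files give for each probe. All 10 were on the array, with 14 of the 41000 probes, and 18199 genes in all could be named. HSPA5, HSP90B1, XBP1 and EDEM1 had 2 probes each and the other 6 genes had 1. Expression was measured on 4 one-colour Agilent arrays, 1 for each genotype of Nalm-6, an established human pre-B leukemia cell line. The genotypes were wild type (WT), a line with both alleles of the gene for actin-related protein 5 disrupted (Arp5 KO), a line lacking actin-related protein 8 (Arp8 KO), and cells labelled Arp8 OE, whose making is not given in the sources used here. Arp5 and Arp8 are subunits of INO80, a chromatin remodeling complex, and the study asked what that complex does to gene expression under oxidative stress. Titles and protocol gave all 4 cultures heme, an inducer of oxidative stress, at 20 uM for 12 h, but 1 label field gave both knockouts as untreated and another gave only Arp5 KO as untreated. Genotype and treatment cannot be told apart for the knockouts. The paper reports slightly slower growth of Arp5 KO cells and, from earlier work, that conditional Arp8 knockout was lethal to cells. Any part of growth in the values here was not tested. Each knockout was 1 cell line and each genotype was 1 array, so no difference has a replicate check and no test was made.

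The ER is where secreted and membrane proteins fold. HSPA5, also called BiP, is the Hsp70 chaperone of this compartment, and when unfolded proteins accumulate it leaves the sensors IRE1, PERK and ATF6, which start the unfolded protein response. IRE1 splices the XBP1 mRNA so that it encodes an active transcription factor, ATF6 is cut to release another, and PERK slows translation and raises ATF4. XBP1 and ATF6 drive genes for chaperones and for ER-associated degradation, the route by which misfolded proteins leave the ER and reach the proteasome. In the B lineage this response is best known from plasma cells, which need XBP1 to secrete antibody.

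Both factors recognise short promoter elements, so the sequence of the member promoters is shown before their expression. The windows, from RefSeq on build GRCh38.p14, ran from 250 bases before to 50 bases after each annotated RNA start, and all 10 members had at least 1. The ER stress response element (ERSE) was searched on both strands as CCAAT and CCACG with 9 bases between them, and ERSE-II as ATTGG and CCACG with 1 base between them. ERSE was found in the windows of HSPA5, HSP90B1, CALR and XBP1, and ERSE-II in those of SDF2L1 and HERPUD1, so 6 of the 10 members held one or the other. Of all 35116 windows, 27 (0.0769%) held ERSE and 19 (0.0541%) held ERSE-II. Each match is printed with up to 30 bases on each side, read along the gene, with capitals for the matched parts. Where the match lies on the opposite strand, the capitals read CGTGG and then ATTGG for ERSE, or CGTGG and then CCAAT for ERSE-II.
HSPA5, ERSE (chr9:125241361-125241439, minus strand): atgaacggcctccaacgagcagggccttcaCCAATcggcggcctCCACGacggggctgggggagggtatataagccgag
HSP90B1, distal ERSE (chr12:103930186-103930264, plus strand): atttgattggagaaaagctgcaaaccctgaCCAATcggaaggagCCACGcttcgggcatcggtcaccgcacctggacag
HSP90B1, proximal ERSE (chr12:103930291-103930369, plus strand): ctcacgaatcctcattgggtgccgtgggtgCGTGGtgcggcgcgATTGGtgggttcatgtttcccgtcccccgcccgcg
CALR, ERSE (chr19:12938359-12938432, plus strand): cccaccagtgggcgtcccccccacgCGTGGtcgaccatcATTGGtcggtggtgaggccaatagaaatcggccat
SDF2L1, ERSE-II (chr22:21642084-21642154, plus strand): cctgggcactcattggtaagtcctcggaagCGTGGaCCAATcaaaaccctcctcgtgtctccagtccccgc
XBP1, ERSE (chr22:28800573-28800651, minus strand): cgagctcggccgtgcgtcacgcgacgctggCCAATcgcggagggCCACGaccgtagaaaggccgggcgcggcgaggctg
HERPUD1, ERSE-II (chr16:56931995-56932065, plus strand): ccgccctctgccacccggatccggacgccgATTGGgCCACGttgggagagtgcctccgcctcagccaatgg

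HSP90B1 was the member with 2 ERSE matches, which lay on opposite strands, at positions -194 to -176 and -89 to -71 from the start. In HSPA5 the match lay at -66 to -48 and in XBP1 at -52 to -34, whereas in CALR it lay farther away, at -225 to -207. The ERSE-II matches were at -188 to -178 in SDF2L1 and at -117 to -107 in HERPUD1. PDIA4, DNAJB9, EDEM1 and SEL1L had neither element in their windows. Every ERSE holds a CCAAT box and a CCACG motif, and ATTGG is a CCAAT box read on the other strand. On their own these short parts were common: CCAAT was in 34.6% and CCACG in 38.1% of all windows. Counted by gene, 10846 and 11494 of 27305 genes had CCAAT and CCACG. All 10 members had both in at least 1 window, but the second XBP1 window held no CCAAT. The core of the unfolded protein response element, TGACGTGG, which overlaps a motif on its other strand, was in 0.729% of all windows and in those of 0 members. PDIA4 and XBP1 each had 2 annotated starts, and the XBP1 match was in the window of 1 of them. A match describes letters in a window and does not show that a factor binds there.

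**Figure D1:**
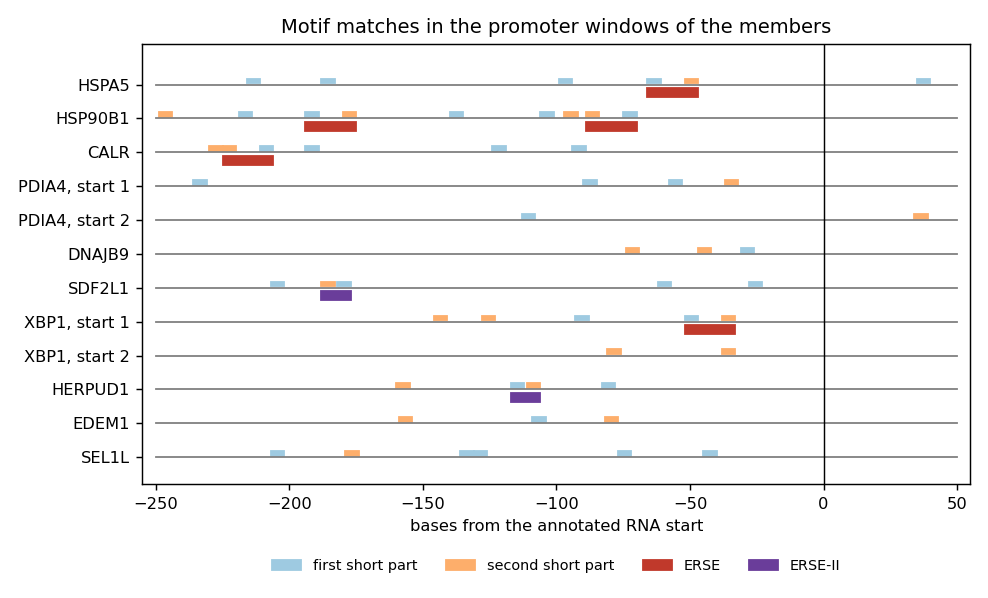
Motif matches in the promoter windows of the 10 members, with bases from the annotated RNA start on the horizontal axis and 1 row per window. Blue boxes mark CCAAT and orange boxes CCACG on either strand, and the red and purple boxes below the lines mark ERSE and ERSE-II, which are in the rows of 6 members.

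Expression values are levels on a log2 scale, the processed spot signal relative to the 75th percentile of its array, and a difference of 1 is 2-fold. Spots of the same probe printed repeatedly on an array gave a technical SD of 0.083 for the log2 difference between 2 arrays, which leaves out any spread between cultures. All 14 member probes were well above background on all 4 arrays and none was saturated. Because levels of different probes depend on the probe, each is compared only with itself across arrays. The labels were checked first. ACTR5, which encodes Arp5, had levels of -0.13 on WT, -4.40 on Arp5 KO, -0.24 on Arp8 KO and -0.41 on Arp8 OE. The 2 ACTR8 probes, for Arp8, differed from WT by -0.53 and -0.68 in Arp8 KO and by 0.02 and -0.01 in Arp8 OE. ACTR8 was thus not raised on the array labelled Arp8 OE, and that label serves only as a name. Whether the ACTR8 probes lie in the disrupted part of the gene was not tested. HMOX1, the heme oxygenase gene that the treatment induces, was lower than in WT by log2 differences of -2.98 on Arp5 KO, -2.91 on Arp8 KO and -2.05 on Arp8 OE. Of the 17 probes for 12 genes of the pre-B lineage, 17 passed the background criterion in each comparison, whereas at most 1 of 6 T cell probes, 3 of 5 myeloid probes and 2 of 8 erythroid probes did.

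The members were lower on the other arrays than on the WT array, by less than 2-fold for nearly all probes. The WT array gave the highest level for 12 of the 14 probes, a share that was 24.1% over the 21783 probes well above background on all 4 arrays. In Arp5 KO all 14 probes were below WT by any amount (49.3% of all 24285 tested probes were), with log2 differences from -0.58 to -0.07 and a median of -0.33 against 0.0042 over all tested probes. In Arp8 KO 13 of 14 were below WT (47.3% of 24578), from -1.37 to 0.02, with a median of -0.48 against 0.0256. In Arp8 OE 12 of 14 were below WT (50% of 24177), from -1.20 to 0.37, with a median of -0.43 against 0.0002. The comparisons share the WT array, so a high value there lowers all 3 together. Against the Arp8 OE array in its place, the member median was 0.098 for the Arp5 KO array and -0.10 for the Arp8 KO array. RNA was measured in bulk, and fewer cells expressing a gene cannot be told apart from less RNA per cell.

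Few of the differences passed the 2-fold threshold that the study uses. In Arp5 KO 0 member probes were over 2-fold lower (2.01% of all tested probes were) and 0 were over 2-fold higher (1.69%). In Arp8 KO 2 were over 2-fold lower (4.35%), 1 each of HSP90B1 and EDEM1, and 0 were higher (3.37%). In Arp8 OE 2 were over 2-fold lower (2.15%), 1 each of HSP90B1 and HSPA5, and 0 were higher (2.96%). At 1.5-fold, the number of lower member probes was 0 for the Arp5 KO array (4.69%), 5 for Arp8 KO (11.2%) and 4 for the Arp8 OE array (5.67%). A difference of more than 2 technical SDs was seen for 12, 13 and 10 of the 14 probes on the Arp5 KO, the Arp8 KO and the Arp8 OE array. The share of all tested probes past this limit was not counted, so the counts do not set the members apart from other probes. The technical SD comes from spots within an array, so these counts do not show that the cultures differ. A spot can be bright on a single array, over 2-fold above its next highest array, and 12.7% of all probes had such a spot adjacent to them. Among the member probes 1 did, HSP90B1 A_23_P2601, with 2 of its 6 adjacent spots bright on WT alone, and its part in that probe's values was not tested.

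**Figure D2:**
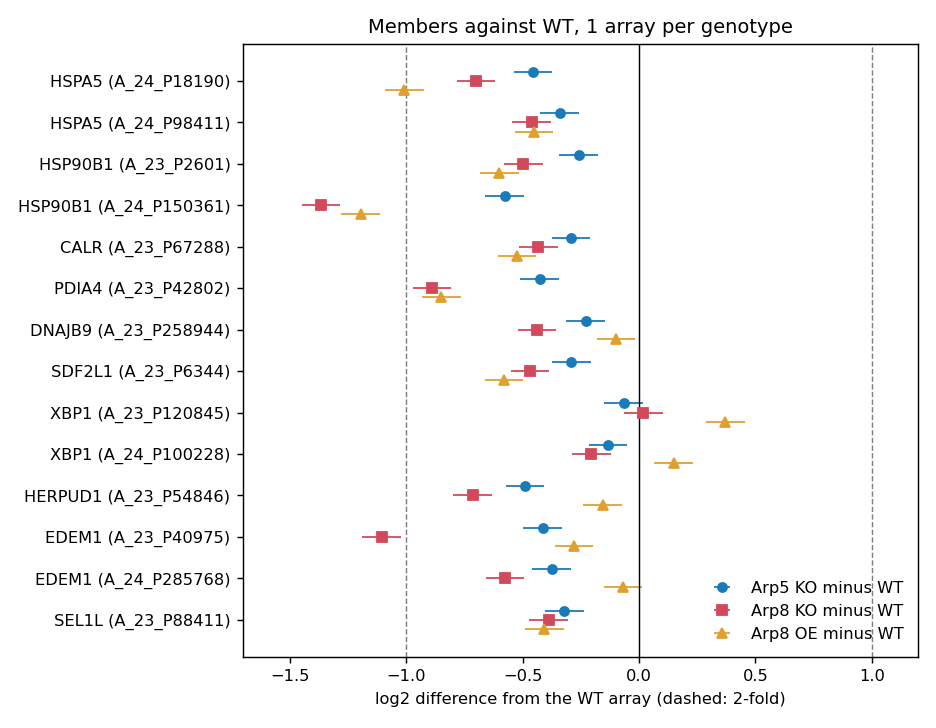
Log2 difference from the WT array of the 14 member probes (rows) on the Arp5 KO, the Arp8 KO and the Arp8 OE array, 1 array each. Bars span 1 technical SD on each side and dashed lines mark 2-fold. All Arp5 KO points lie left of 0, and only HSPA5, HSP90B1 and EDEM1 each have a probe past the left dashed line.

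The chaperones and folding enzymes (6 genes, 8 probes) were below WT on all 3 other arrays for every probe. HSPA5 binds hydrophobic stretches of unfolded chains and releases them with ATP. Its probe A_24_P18190 had levels of 2.75 on WT, 2.29 on Arp5 KO, 2.05 on Arp8 KO and 1.74 on Arp8 OE. The other HSPA5 probe, A_24_P98411, had 2.23, 1.88, 1.76 and 1.77 in the same order. Both probes were highest in WT and next in Arp5 KO. They were close in Arp5 KO, where they were 1.37-fold and 1.27-fold lower than in WT, but in Arp8 OE the former was 2.01-fold lower and the latter 1.37-fold. The 2-fold call of HSPA5 therefore rests on 1 of 2 probes, and quantile normalization and cyclic loess brought that log2 difference from -1.01 to -0.98 and -0.99, just inside the threshold. The gap between the HSPA5 probes in Arp8 OE, 0.56 for the dimmer minus the brighter, was above the 95th percentile of 0.46 over the 4049 genes with several probes.

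HSP90B1, also called GRP94, is the Hsp90 of the ER, with integrins and Toll-like receptors among its clients. Its probe A_23_P2601 had levels of 6.61 on WT, 6.35 on Arp5 KO, 6.11 on Arp8 KO and 6.01 on Arp8 OE. The other probe, A_24_P150361, had 3.24, 2.67, 1.88 and 2.05. Both gave the same direction on each array but not the same size: in Arp8 KO the log2 difference from WT was -0.50 on the former and -1.37 (2.58-fold lower) on the latter, and in Arp8 OE -0.60 and -1.20 (2.29-fold lower). This gap of -0.87 in Arp8 KO, dimmer minus brighter probe, lay below the 5th percentile (-0.74) of the gap over the same genes. In Arp8 OE the gap of -0.60 was also below the 5th percentile, -0.54, whereas in Arp5 KO the gap of -0.32 was above the 5th percentile, -0.40. The second probe varied most of all member probes, over a range of 1.37.

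CALR encodes calreticulin, a lectin that holds newly made glycoproteins and also binds calcium. Its levels were 5.17 on WT, 4.88 on Arp5 KO, 4.74 on Arp8 KO and 4.65 on Arp8 OE, a spread of 0.52. PDIA4, a disulfide isomerase also called ERp72, had 2.72, 2.29, 1.83 and 1.87. PDIA4 was lowest in Arp8 KO and Arp8 OE, 1.85-fold and 1.80-fold below WT, and these arrays differed from each other by 0.04, less than the technical SD. With normexp background correction the Arp8 KO difference of PDIA4 was -1.005, past 2-fold, in place of -0.89. SDF2L1, a small ER protein that works with HSPA5 and its J-proteins, had levels of 6.82, 6.53, 6.35 and 6.24. CALR, SDF2L1, the brighter HSP90B1 probe, the brighter HSPA5 probe and SEL1L shared 1 order, with WT highest, then Arp5 KO, then Arp8 KO, then Arp8 OE.

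DNAJB9, or ERdj4, is a J-protein that hands clients to HSPA5 and also holds IRE1 in check. It had levels of 1.33 on WT, 1.11 on Arp5 KO, 0.90 on Arp8 KO and 1.24 on Arp8 OE. Among the folding genes it was the one on which Arp8 OE lay above Arp5 KO, by 0.13, and its distance from WT there, -0.10, was close to 1 technical SD.

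XBP1 did not follow the folding genes. The probe A_23_P120845 had levels of 6.66 on WT, 6.60 on Arp5 KO, 6.68 on Arp8 KO and 7.03 on Arp8 OE, and A_24_P100228 had 2.55, 2.42, 2.35 and 2.70. Both probes were highest in Arp8 OE, by 0.37 and 0.15 over WT. In Arp5 KO neither differed from WT by more than 2 technical SDs (-0.07 and -0.13), and in Arp8 KO the probes gave 0.02 and -0.20. The sign of the former turned under cyclic loess (-0.03) and normexp (-0.08). Arp8 OE exceeded Arp8 KO by 0.35 on both probes. Quantile normalization brought the larger of the differences from WT in Arp8 OE to 0.25. The arrays measure total XBP1 mRNA, and splicing by IRE1 was not measured.

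The degradation genes (3 genes, 4 probes) were below WT on all 3 arrays, as the folding genes were, but most lay nearer to WT in Arp8 OE than in the knockouts. HERPUD1 is a membrane protein that assembles the degradation machinery around the ubiquitin ligase HRD1. Its levels were 5.05 on WT, 4.56 on Arp5 KO, 4.33 on Arp8 KO and 4.89 on Arp8 OE. It was 1.40-fold lower on Arp5 KO, 1.64-fold lower on Arp8 KO and 1.11-fold lower on Arp8 OE than in WT.

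EDEM1 picks glycoproteins with trimmed mannose residues for disposal. Its probe A_23_P40975 had levels of 0.75 on WT, 0.33 on Arp5 KO, -0.36 on Arp8 KO and 0.47 on Arp8 OE, and A_24_P285768 had 0.23, -0.14, -0.34 and 0.17. Both were highest in WT and lowest in Arp8 KO. The Arp8 KO array was 2.15-fold below WT on the former probe and 1.49-fold below on the latter, so the 2-fold call again rests on 1 of 2 probes. The gap of 0.53 between the probes there lay inside the 5th to 95th percentiles over all genes with several probes, -0.74 to 0.65. SEL1L, the partner that stabilises HRD1, had levels of -1.93 on WT, -2.25 on Arp5 KO, -2.31 on Arp8 KO and -2.33 on Arp8 OE. The last 3 arrays differed among themselves by at most 0.09, about 1 technical SD, and all lay 1.25-fold to 1.33-fold below WT.

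The other arrays were also set against each other, by the role of the members. Arp8 KO was below Arp5 KO on 13 of 14 probes, with a median log2 difference of -0.20, and the exception was the brighter XBP1 probe at 0.08. Over all probes well above background on 4 arrays, 46.9% were lower in Arp8 KO than in Arp5 KO. Between Arp8 OE and Arp8 KO, the folding genes had a median log2 difference of -0.04 (from -0.31 to 0.34, 4 probes higher and 4 lower). The degradation genes had a median of 0.53 in the same comparison (from -0.02 to 0.83, 3 of 4 probes higher), and XBP1 lay at 0.35. Over all probes well above background on 4 arrays, 52.4% were lower in Arp8 OE than in Arp8 KO, with a median of -0.02. HERPUD1, at 0.56, and both EDEM1 probes, at 0.83 and 0.51, were above the folding gene with the largest value, DNAJB9 at 0.34. SEL1L, at -0.02, lay within the range of the folding genes. These values come from 2 arrays, and the roles were assigned with the values known.

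**Figure D3:**
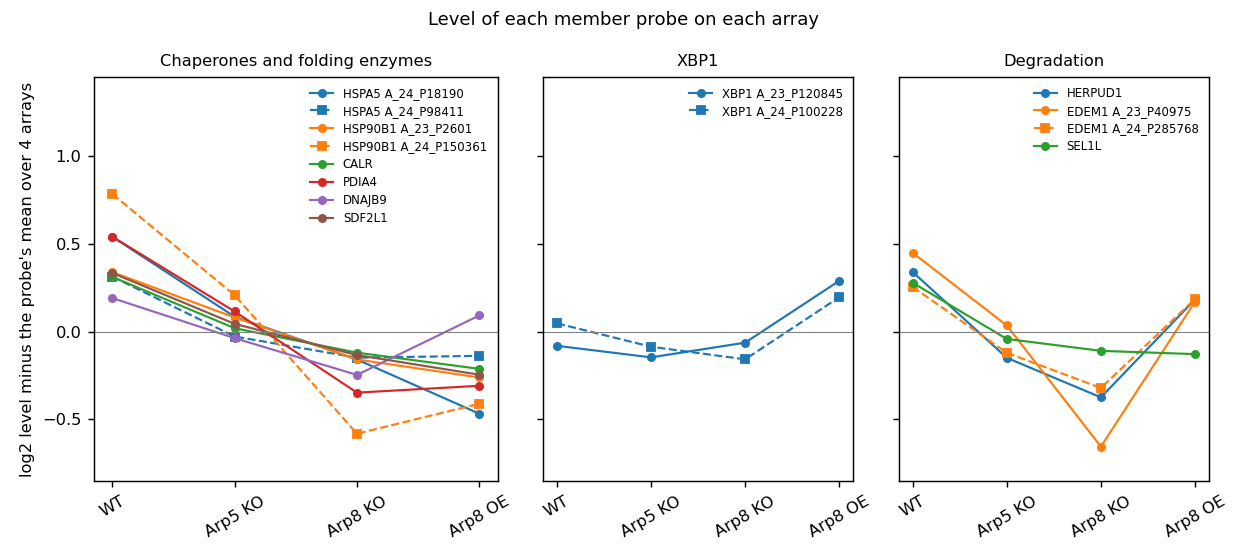
Level of each member probe on the 4 arrays, on a log2 scale with the probe's own mean over the arrays subtracted, 1 line per probe and 1 panel per role. The folding genes lie lower in Arp8 KO and Arp8 OE than in WT, and XBP1 is highest in Arp8 OE. HERPUD1 and EDEM1 are lowest in Arp8 KO and lie nearer to WT in Arp8 OE, while SEL1L does not.

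Related genes were then counted in 8 lists, each beside the share of all tested probes past 2-fold given above. The lists, like the members, were chosen with earlier results of these data known. The other parts of the ER Hsp70 system (8 genes, 12 probes) had medians of -0.11 on Arp5 KO, -0.23 on Arp8 KO and -0.35 on Arp8 OE, and 0 probes past 2-fold on any array. The probes that differed most were those of DNAJC3, a J-protein that also inhibits PERK (-0.50, -0.93 and -0.69), HYOU1, the large Hsp70 that exchanges nucleotide on HSPA5 (-0.32, -0.52 and -0.72), and DNAJB11, or ERdj3 (-0.28, -0.50 and -0.71). These 3 genes lay below WT on each array, as HSPA5 did, but not every probe of the list did. Below WT were 9 of the 12 probes on Arp5 KO, 8 on Arp8 KO and 10 on Arp8 OE. Over all tested probes the shares were 49.3%, 47.3% and 50%. The median over gene means was -0.26 in Arp5 KO and -0.58 in Arp8 OE, since SEC63, with 4 probes, lay nearer to WT. MANF, whose probe had 3 adjacent spots bright on 1 array alone, lay at -0.54, -0.62 and -0.69, and without such probes the Arp8 OE median of the list was -0.22.

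The disulfide isomerases and oxidases (12 genes, 20 probes), the family of PDIA4, were below WT on 18 probes on Arp5 KO, 19 on Arp8 KO and 17 on Arp8 OE, beside shares of 49.3%, 47.3% and 50% over all tested probes. Their medians were -0.19, -0.34 and -0.40. ERP44, which retains oxidases and unassembled antibody subunits, was past 2-fold: its probe A_23_P380092 lay at -0.26 on Arp5 KO, -1.24 on Arp8 KO and -1.48 on Arp8 OE. The second ERP44 probe gave -0.01, -1.07 and -0.73. PDIA3, or ERp57, the isomerase that works with calreticulin, had 3 probes, whose log2 differences ranged from -0.35 to -0.29 on Arp5 KO, -0.77 to -0.68 on Arp8 KO and -0.73 to -0.66 on Arp8 OE. CRELD2 lay at -0.14, -0.52 and -0.79.

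The calnexin cycle, in which CALR acts with its membrane-bound relative CANX, was not low as a list. Its 12 tested probes for 7 genes had medians of -0.02 on Arp5 KO, 0.04 on Arp8 KO and -0.06 on Arp8 OE. CANX had log2 differences of -0.01, -0.35 and -0.28 on its brighter probe and -0.30, -0.23 and -0.47 on its dimmer one. The glucosyltransferase UGGT1, which tests the fold of glycoproteins, gave opposite signs in Arp8 KO, -0.68 on A_23_P255016 and 0.71 on A_23_P255011, and the latter had 3 adjacent spots bright on 1 array alone. UGGT2 was measured on 1 of 3 probes, at 0.15, 0.35 and 0.31.

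ER-associated degradation beyond the members (16 genes, 27 probes) had medians of -0.19 on Arp5 KO, -0.36 on Arp8 KO and -0.25 on Arp8 OE. Probes below WT numbered 21, 23 and 19 of the 27, beside the same 49.3%, 47.3% and 50% of all tested probes. DERL3, a derlin of secretory cells, was the gene past 2-fold. Its brighter probe had levels of 1.39 on WT, 1.47 on Arp5 KO, -0.52 on Arp8 KO and 1.14 on Arp8 OE, which put it -1.91 from WT on the Arp8 KO array, and its dimmer probe gave -0.95 there. On Arp5 KO and Arp8 OE the differences were 0.07 and -0.25 on the brighter probe and 0.34 and -0.06 on the dimmer one. FAF2, which recruits the p97 ATPase to the ER membrane, lay at -0.37, -0.57 and -0.15 on its brighter probe and at -0.64, -0.90 and -0.27 on its dimmer one. SELENOS, a selenoprotein of the same complex, lay at -0.36, -0.15 and -0.35 on its brighter probe and at -0.22, -0.86 and -0.61 on its dimmer one.

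The sensors and transducers that start the response had medians near 0, at -0.01, 0.11 and -0.12 on the Arp5 KO, the Arp8 KO and the Arp8 OE array (8 genes, 12 probes tested). ERN1, which encodes IRE1, did not reach the background criterion on any array. MBTPS2, the protease that makes the second cut in ATF6, was past 2-fold in Arp8 KO, at -1.02, and lay at -0.47 in Arp5 KO and -0.53 in Arp8 OE. EIF2S1, the translation factor that PERK phosphorylates, lay at -0.11, -0.04 and -0.63 on its brighter probe and at 0.19, 0.41 and -0.17 on its dimmer one. ATF6B, a relative of ATF6, gave -0.31, -0.57 and -0.11 on its brighter probe and 0.13, -0.25 and 0.18 on the other.

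The translocation and transport machinery (18 genes, 30 probes tested) had medians of -0.08, -0.33 and -0.22. SEC61B, a subunit of the channel through which chains enter the ER, was near WT in Arp5 KO (-0.11 and -0.04 on 2 probes) but over 2-fold lower in Arp8 KO (-1.24 and -1.17) and Arp8 OE (-1.33 and -1.30). LMAN1, a cargo receptor for export, lay at -0.19, -1.04 and -0.51 on its brighter probe, and its dimmer probe was not well above background in Arp8 KO and Arp8 OE. SEC31A, a coat protein of export vesicles, was within 0.14 of WT in Arp5 KO and lay at -0.44 and -0.46 in Arp8 KO and -0.78 and -0.80 in Arp8 OE. SEC61B and SEC31A were therefore nearer to WT in Arp5 KO than in Arp8 OE on all their probes.

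PERK can start the branch of the ATF4 and CHOP genes, but its activity was not measured. These genes differed from the members on the Arp8 OE array. All 14 probes of the 10 genes were above WT there (50% of all tested probes were), with a median of 0.59, whereas the medians were -0.17 in Arp5 KO and -0.12 in Arp8 KO. Above WT were 2 of the 14 probes in Arp5 KO (50.7% of all tested probes) and 6 in Arp8 KO (52.7%). DDIT4, an inhibitor of mTORC1 signalling, was past 2-fold, with levels of 2.56 on WT, 2.72 on Arp5 KO, 2.89 on Arp8 KO and 4.39 on Arp8 OE. DDIT3, which encodes CHOP, had levels of -0.56 on WT, -1.20 on Arp5 KO, -1.60 on Arp8 KO and 0.13 on Arp8 OE, so that it differed from WT by -1.05 on the Arp8 KO array and by 0.68 on the Arp8 OE array. CHAC1, an enzyme that breaks down glutathione, lay at -0.56, -0.79 and 0.90. DDIT3 and CHAC1 were lower than WT in both knockouts and higher in Arp8 OE, while HSPA5, HSP90B1, CALR, PDIA4 and SDF2L1 were lower on all 3.

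**Figure D4:**
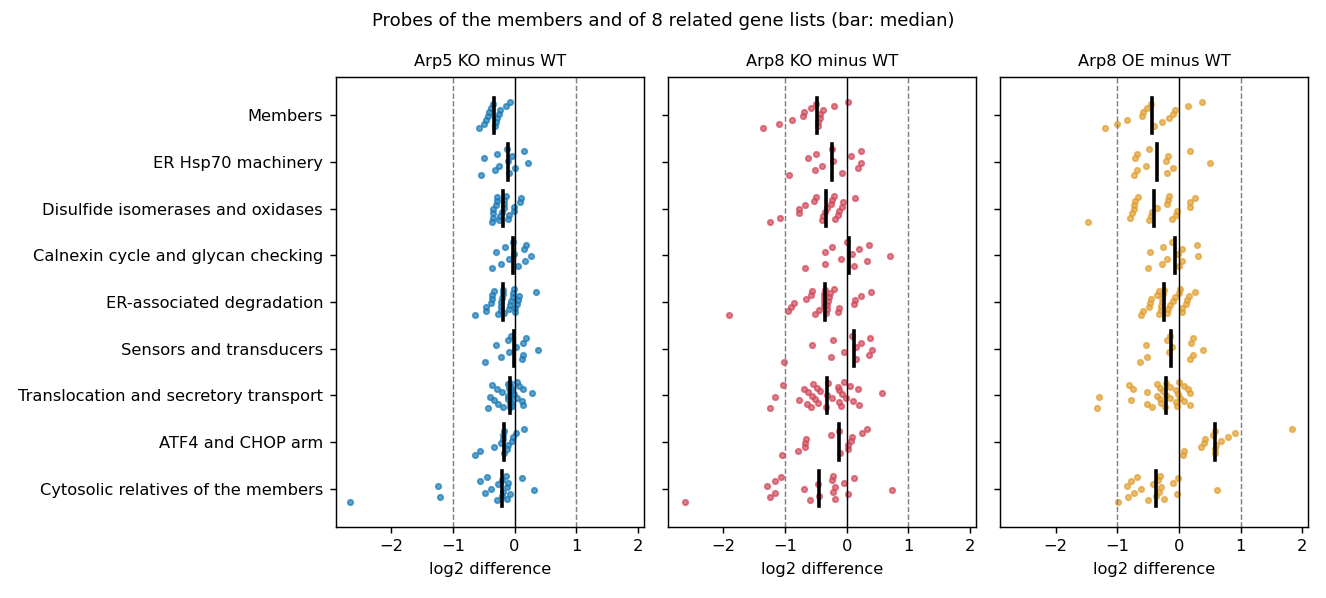
Log2 difference from WT (horizontal axis, dashed lines at 2-fold) of every tested probe of the members and of 8 related gene lists, 1 panel per array, with a black bar at the median. The member bars lie at -0.33, -0.48 and -0.43, the calnexin cycle bars lie near 0, and the ATF4 and CHOP bar lies at 0.59 in the Arp8 OE panel.

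Members with an ERSE or ERSE-II match (9 probes) had medians of -0.29 on Arp5 KO, -0.47 on Arp8 KO and -0.52 on Arp8 OE. The members without one (5 probes) had -0.38, -0.58 and -0.28. XBP1, whose window holds ERSE, was the member nearest to WT in both knockouts. Apart from the members, 38 genes had a window with either element, and 22 of them were measured on 31 tested probes. Of these probes 23, 25 and 23 were below WT on the Arp5 KO, the Arp8 KO and the Arp8 OE array, with medians of -0.08, -0.25 and -0.16, whereas 49.3%, 47.3% and 50% of all tested probes were below WT. They include HYOU1, PDIA6, ERO1B, CRELD2, CANX and SERP1 of the lists above, and the 16 measured genes in none of the lists had 13, 17 and 15 of 21 probes below WT and medians of -0.02, -0.23 and -0.15.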

How the data were processed

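Gene expression in 4 cultures of Nalm-6 cells was measured on 1 array each. The deposited scanner files hold spot intensity, which the authors extracted with the Agilent software in version 10.10.1.1 (background-subtracted, not scaled between arrays), and the deposited series matrix holds the same intensity times 1 factor per array. Here the processed signal was divided by its array's 75th percentile (735.1, 739.6, 655.7 and 647.4 for WT, Arp5 KO, Arp8 KO and then Arp8 OE) and taken as log2. Outlier spots were left out. A probe was tested if at least 50% of its spots were well above background on either array compared, and a dim value was raised to the lowest value well above background. Of 41000 probes, 27204 matched a gene symbol through RefSeq accessions. With 1 array per group no test was made, and precision is limited by the number of arrays. The technical SD came from 177 probes printed repeatedly. The code was tested on simulated data. From the pathway lists, genes past 2-fold were named, or else the 3 with the largest difference. Members and lists were chosen with earlier results of these data known. Alternatives were other scalings, normexp with an offset of 50 (limma 3.58.1, on the median spot signal), the series matrix, other filters, gene means, 1.5-fold and Arp8 OE as reference.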

Additional observations from a re-analysis of the deposited data

How the results depend on the processing

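Of 686 values recomputed under the alternatives, 622 moved by less than the technical SD or, for counts, by at most 1.5 times, and 64 moved further, of which 42 came from taking Arp8 OE as the reference array. No value past 2-fold changed sign. With that reference the member median was 0.098 for the Arp5 KO array and -0.10 for the Arp8 KO array, 14 of 28 member differences turned their sign, and 0 member probes were over 2-fold lower in Arp8 KO. Some list medians turned as well, among them those of the ER Hsp70 system (0.19) and the disulfide isomerases (0.30) on Arp5 KO. The number of member probes over 2-fold lower in Arp8 OE was 1 under quantile normalization and 1 under cyclic loess, because HSPA5 A_24_P18190 lay just inside the threshold. Averaged over the probes of a gene, 0 members were over 2-fold lower in Arp8 KO and 0 in Arp8 OE. Counted by probe at 1.5-fold, 5 were lower in Arp8 KO and 4 in Arp8 OE. With normexp 3 probes were over 2-fold lower in Arp8 KO, in place of 2. Normexp moved 8 of 42 member differences, the most for a change of scaling or background. Scaling to the median, the series matrix, the stricter filter and no filter left all 75 values each within these limits. No paired analysis was possible because each genotype had 1 array. Treatment and genotype cannot be told apart for the knockouts, and the number of arrays limits every comparison.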

Other observations

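The cytosolic and mitochondrial relatives of the members (8 genes, 19 probes) had median log2 differences from WT of -0.20 on Arp5 KO, -0.45 on Arp8 KO and -0.37 on Arp8 OE. Below WT were 17 of the 19 probes on Arp5 KO, 16 on Arp8 KO and 18 on Arp8 OE. Over all tested probes the shares were 49.3%, 47.3% and 50%. The probes above WT were of HSPA8 and TRAP1. HSP90AB1, a cytosolic Hsp90, lay at -0.26, -0.59 and -0.42 on its brightest probe and at -0.48, -1.17 and -0.73 on its dimmest. HSP90AA1, the inducible cytosolic Hsp90, lay between -0.56 and -0.12 on Arp5 KO, -1.24 and -0.18 on Arp8 KO and -0.98 and -0.10 on Arp8 OE over 4 probes. HSPA1A had 3 probes, which were all over 2-fold lower in both knockouts, from -2.66 to -1.22 in Arp5 KO and from -2.62 to -1.17 in Arp8 KO, and lay between -0.84 and -0.61 in Arp8 OE.

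The pattern of the HSP90B1 probe A_24_P150361 over the 4 arrays was compared with 16560 probes of 11151 other genes by the root mean square difference of levels centred on each probe's mean. The nearest were FER (0.030), ANP32B (0.075), RAD23B (0.083), HSP90AA1 (0.086) and CENPI (0.097). FER lay at -0.51 on Arp5 KO, -1.36 on Arp8 KO and -1.14 on Arp8 OE. The HSP90AA1 probe in question lay at -0.56, -1.24 and -0.98, and its 3 other probes averaged -0.27, -0.65 and -0.52. The likeness rests on 4 arrays and is a description.

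Among genes marking plasma cells, where the unfolded protein response is prominent, the PRDM1 probe failed the background criterion on all 4 arrays. MZB1, an HSP90B1 cochaperone of B cells, had levels of 4.67 on WT, 4.25 on Arp5 KO, 4.17 on Arp8 KO and 4.78 on Arp8 OE. JCHAIN had -3.80, -4.54, -4.64 and -3.65. Both were lower in the knockouts than in WT and within 0.15 of WT in Arp8 OE, but the other genes of this list did not share that order. SDC1, or syndecan-1, lay at 0.07 and 0.0011 on Arp5 KO, 0.75 and 0.80 on Arp8 KO and 0.40 and 0.21 on Arp8 OE on its 2 probes. IRF4 lay at 0.28 and 0.0019 on Arp5 KO, -0.21 and -0.49 on Arp8 KO and 0.08 and -0.11 on Arp8 OE. TNFRSF17 was well above background on WT alone. Over the 7 tested probes of the list 3, 5 and 2 were below WT, with medians of 0.0011, -0.49 and 0.11.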
